A study of Mus musculus with 6 samples.

Results

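The genes described here encode the SR proteins, the heterogeneous nuclear ribonucleoproteins (hnRNPs), the core proteins of the spliceosomal small nuclear ribonucleoproteins (snRNPs) and the SF3 branch point complex. They were taken as every gene whose current symbol begins with Srsf, Hnrnp, Snrp, Sf3a or Sf3b and which had a probe set annotated to it alone, giving 44 of the 12393 genes measured: 9 Srsf, 18 Hnrnp, 8 Snrp and 9 Sf3 genes. This naming rule used no measured value. The classes themselves were chosen with earlier results of these data known, so the choice was not blind to the data. Of the other genes with such symbols, Hnrnpa3, Hnrnpa1l2-ps2, Snrpa, Snrpd1 and Snrpd2 were named only on probe sets shared with other genes, and Hnrnpa0, Snrpf, Srsf7 and Srsf12 had no annotated probe set.

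Total RNA was measured on 6 Affymetrix mouse arrays, 3 of vector control and 3 of miR-34a samples. Both groups came from 344SQ, a line of metastatic lung cancer cells from mouse with high Zeb1, a repressor of epithelial genes. The controls carried a control vector and the other samples expressed miR-34a inducibly. No source used here gives the promoter, the inducer, its dose or the time of induction, and both groups rest on a single cell line. What the RNA came from is labelled in conflicting ways, as tumours grown in mice in the design text and the miR-34a titles and as cultured cells in the cell type labels and the growth protocol. No label says whether the replicates are separate mice or separate cultures. The p-values therefore measure only the spread among these arrays, which may be technical. The mature microRNA that the experiment turns on, encoded at chr4:150068473-150068494 on the plus strand (RefSeq, GRCm38.p6), is shown with its seed, bases 2 to 8, in capitals.
mmu-miR-34a-5p: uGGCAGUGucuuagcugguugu

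Introns are removed from pre-mRNA by the spliceosome, which assembles anew on each intron from the U1, U2, U4, U5 and U6 snRNPs. SR proteins carry arginine- and serine-rich tails and mostly promote the use of exons to which they bind, whereas many hnRNPs coat pre-mRNA and often favour exon skipping. Sm proteins form the ring around snRNAs, and SF3A and SF3B, parts of the U2 snRNP, hold the branch point. Many SR protein and hnRNP genes regulate their own mRNA by alternative splicing, in part through isoforms that are degraded, so different stretches of 1 gene's transcripts need not change alike.

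The medians of the deposited intensities lay between 466.7 and 484.2 on the 6 arrays. Vector 1 stood apart: its first principal component score was -43.33, where the other vector arrays scored -5.42 and -8.75 and the miR-34a arrays lay from 16.25 to 21.66. A list of 11 genes was chosen as markers of lung cancer epithelial state. Among them the keratin genes Krt8 and Krt18 and vimentin, Vim, lay above the 99.8 percentile of gene levels, and Zeb1 lay at 74.6. The lung lineage genes Nkx2-1 and Sftpc lay at 30.8 and 28.4. Of the 11 listed genes 0 passed in either direction, though 9 changes were above 0. In 3 (27.3%, against 20.8% of all genes) all miR-34a values lay above all vector values. Among these was Cdh2, with 62, 1010 and 977 in vector and 2054, 1773 and 1356 in miR-34a samples. Its change of 2.00 on the log2 scale was 0.77 without vector 1. Epcam, whose groups overlapped, had 305 on vector 1, against 977 and 1463 on the other vector arrays. Fibroblast, macrophage and endothelial genes were also measured. The brightest gene of each list was Col1a2 at the 98.0 percentile, Ctss at 92.7 and Flt1 at 76.2. Medians of these lists were 88.8, 79.9 and 53.0, and their lowest genes lay at 43.7, 19.9 and 19.1. In bulk RNA of this kind, fewer cells of a type and less RNA per cell cannot be told apart.

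The question put to these arrays is which mRNAs have another level once 344SQ cells express miR-34a. SR protein, hnRNP and snRNP protein genes were among those that fell: 5 of 9 Srsf, 7 of 18 Hnrnp and 3 of 8 Snrp genes were lower in miR-34a samples, while 0 of 9 Sf3 genes passed in either direction. The falls were moderate, from 1.26-fold for Hnrnpd and Srsf3 to 1.72-fold for Srsf10. Values were tested as log2(intensity + 16) with limma, Benjamini-Hochberg adjusted over all 12393 genes, and a gene passed at an adjusted p under 0.05. Of the 44 genes 15 passed as lower, or 34.1%, where the share over all genes was 5.25%. Among them 0 passed as higher, where the share over all genes was 6.5%, and 1 gene, Sf3b2, was higher at an unadjusted p under 0.05. The median change of the 44 genes was -0.25 on the log2 scale, against 0.02 over all genes, and 36 of 44 changes were below 0. All 3 miR-34a values lay below all 3 vector values in 26 genes (59.1%, against 14.0% of all genes) and above them in 2 (4.55%, against 20.8%).

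The 44 genes were mostly bright, with a median level percentile of 92.3. Among the 6197 genes of highest level, 7.87% passed as lower and 9.1% as higher, and the median change was 0.06. Of the 44 genes 43 were among them, 15 of which (34.9%) passed as lower. Set against the vector mean of each gene, the median of the 44 genes was -0.28, -0.21 and -0.27 on the 3 miR-34a arrays. On the 3 vector arrays, which lie near 0 by construction, it was -0.03, 0.06 and -0.02, so the groups did not overlap in this median. Over all genes the same median was -0.004, 0.03 and 0.05 on miR-34a arrays and 0.04, -0.02 and -0.01 on vector arrays.

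The number of calls depended on single arrays. Without vector 1, which stood apart, 18 genes passed as lower, including each of the 15, and 7.15% of all genes did. Leaving out vector 2 gave 9 genes (4.2% of all genes passed as lower in that fit) and leaving out vector 3 gave 6 (2.56%). Fewer passed with a miR-34a array left out: 2 when array 1 was dropped (1.08%), 8 when array 2 was dropped (2.94%) and 1 when array 3 was dropped (1.03%). With the replicate number as a block 6 genes passed as lower, against 2.19% of all genes. In each of the 15 genes the groups did not overlap. Their changes therefore had to stay below 0 in the 6 fits that left out an array. The median over the 44 genes stayed between -0.284 and -0.232 in these fits. With arrays centred on their medians, which lowered the median change of all genes to -0.07, 19 of the 44 genes passed as lower and 0 as higher. The split over all genes then turned from 651 lower and 805 higher to 992 lower (8.0%) and 451 higher (3.64%).

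**Figure D1:**
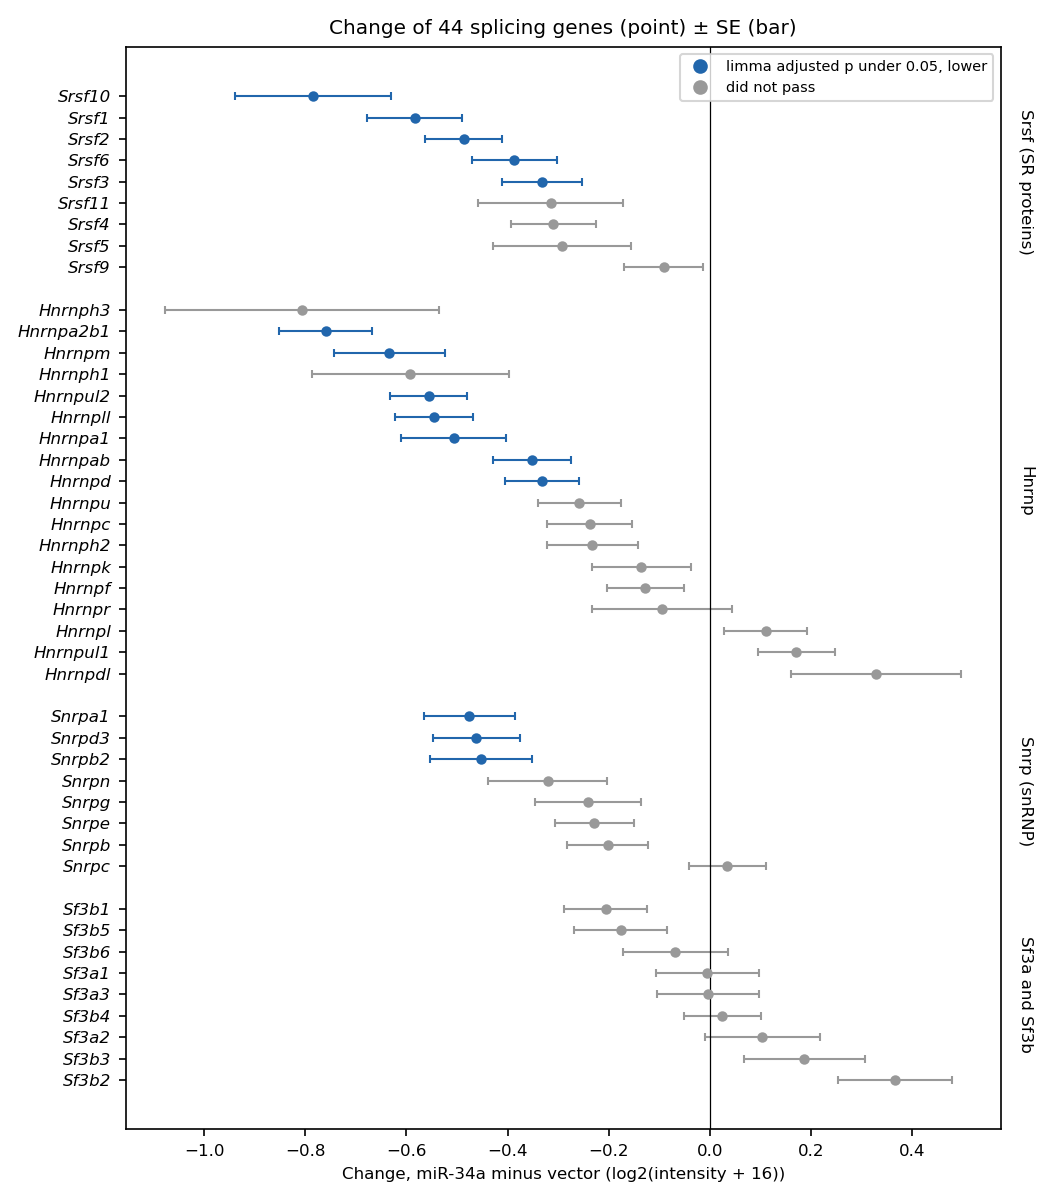
Change of each of the 44 genes between miR-34a and vector samples, as log2(intensity + 16), point with limma standard error, 3 arrays a group, ordered within the Srsf, Hnrnp, Snrp and Sf3 genes. The 9 Srsf points all lie below 0 and 5 of them passed, whereas the 9 Sf3 points lie from -0.21 to 0.37 and 0 passed.

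Promoter sequences were set side by side because members of several classes fell together. They are the 250 bases before the first start that RefSeq lists for the gene on GRCm38.p6, for Srsf1 (chr11:88047123-88047372 on the plus strand), Srsf10 (chr4:135855821-135856070 on the plus strand), Hnrnpa2b1 (chr6:51469895-51470144 on the minus strand) and, as a gene that did not pass, Hnrnpl (chr7:28810640-28810889 on the plus strand). Capitals mark the GC box letters GGGCGG, the letters CCAAT of the box of that name, or the extended ETS motif CCGGAAG, on either strand.
Srsf1: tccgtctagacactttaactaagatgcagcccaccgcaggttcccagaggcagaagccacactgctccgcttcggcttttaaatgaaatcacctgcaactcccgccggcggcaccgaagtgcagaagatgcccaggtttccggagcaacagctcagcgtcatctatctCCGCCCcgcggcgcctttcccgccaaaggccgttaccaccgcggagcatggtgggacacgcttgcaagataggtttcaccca
Srsf10: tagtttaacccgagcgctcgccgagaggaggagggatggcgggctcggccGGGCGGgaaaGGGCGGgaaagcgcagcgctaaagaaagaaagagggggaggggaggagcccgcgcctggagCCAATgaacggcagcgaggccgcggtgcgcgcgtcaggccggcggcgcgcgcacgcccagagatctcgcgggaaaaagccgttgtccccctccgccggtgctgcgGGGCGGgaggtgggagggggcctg
Hnrnpa2b1: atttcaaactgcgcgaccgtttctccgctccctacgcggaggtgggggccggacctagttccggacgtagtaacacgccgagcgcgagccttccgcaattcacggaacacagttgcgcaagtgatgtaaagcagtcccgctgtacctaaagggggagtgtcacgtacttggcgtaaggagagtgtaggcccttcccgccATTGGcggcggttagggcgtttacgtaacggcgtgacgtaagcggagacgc
Hnrnpl: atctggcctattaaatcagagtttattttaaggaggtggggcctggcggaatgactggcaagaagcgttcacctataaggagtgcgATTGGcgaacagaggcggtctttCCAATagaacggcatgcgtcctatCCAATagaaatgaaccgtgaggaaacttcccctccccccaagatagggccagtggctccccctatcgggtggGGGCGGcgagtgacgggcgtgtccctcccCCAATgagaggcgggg
None of these 4 stretches held CCGGAAG, and both Srsf10 and Hnrnpl held a CCAAT and a GC box.

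A promoter was listed for 39 of the 44 genes, 13 of them among those that fell. GGGCGG was found in 26 of 39 (66.7%), against 53.2% of the promoters of 9887 tested genes and 32.9% of all 27025 promoters. CCAAT was found in 18 (46.2%, against 35.8% and 34.5%). CCGGAAG was found in 14 (35.9%, against 11.6% and 7.05%): 2 of the 13 genes that fell and 12 of the 26 that did not pass. Further motifs were searched on both strands, and shares of tested-gene promoters are given beside the counts of the 39. GGAAG, which CCGGAAG contains, was found in 26 (67.1%), and TGACG in 14 (24.1%). The motif GCGGGAA was in 5 (5.99%), the TATA motif TATAAA in 4 (9.14%), the motif TCGCGA in 4 (3.61%) and the motif TTCGCGC in 2 (2.14%). In 1 promoter each were the E-box CACGTG (7.74%), the full CRE TGACGTCA, which contains TGACG (2.32%), and the letters CCATCTTG (1.23%) and AAGATGG (4.27%), the latter contained in the opposite strand of the former. The E2F motif TTTGGCGC was in 0 (0.738%). Such matches describe letters in a window and were not set against any measure of binding.

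Of the SR protein genes 5 of 9 passed as lower, all 9 changes were below 0, and their median was -0.33. Srsf1, whose product was first known as the splicing factor ASF/SF2, had intensities of 7181, 7822 and 6889 in vector and 4498, 5267 and 4840 in miR-34a samples, and fell by 0.58 ± 0.0942 on the log2 scale (SE; limma adjusted p = 0.0137). Srsf2, also called SC35, had 6788, 6619 and 6396 in vector and 4847, 4499 and 4776 in miR-34a samples, and fell by 0.49 ± 0.0761 (SE; adjusted p = 0.0126). In both genes the lowest vector array lay well above the highest miR-34a array. Srsf10, an SR protein that acts as a general splicing repressor when dephosphorylated, had 1820, 2257 and 2276 against 1087, 1503 and 1099. It fell by 0.79 ± 0.154 (SE; adjusted p = 0.0231), with miR-34a 2 nearest to the vector arrays. Srsf6 had 5480, 5618 and 5310 against 3864, 4267 and 4425, and fell by 0.39 ± 0.0840 (SE; adjusted p = 0.0304). Srsf3, the smallest SR protein, with a role in mRNA export as well, had 5459, 6032 and 5863 against 4761, 4579 and 4433, and fell by 0.33 ± 0.0797 (SE; adjusted p = 0.0405). The groups did not overlap in any of these 5 genes.

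The other 4 SR protein genes did not pass. Srsf4 had 1908, 1946 and 1763 in vector and 1491, 1600 and 1432 in miR-34a samples, a change of -0.31 (95% interval -0.51 to -0.11, adjusted p = 0.0581), with groups that did not overlap. Srsf11 had 3314, 4003 and 4805 against 2963, 3475 and 3209, a change of -0.31 (95% interval -0.65 to 0.02), and its vector array 1 lay within the miR-34a range. Srsf5 had 4780, 3462 and 4770 against 3535, 3581 and 3387, a change of -0.29, and here vector 2 was the low array. Srsf9 stayed nearest to 0 in this class, at -0.09 (95% interval -0.27 to 0.09). Srsf11 passed as lower without vector 1 and Srsf5 without vector 2.

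Calls of SR protein genes were kept to different degrees when an array was left out. Srsf1 and Srsf2 were called in 4 of the 6 fits, all but those without miR-34a 1 or miR-34a 3. Srsf10 was called in 2, those without vector 1 or miR-34a 2. Srsf3 and Srsf6 were called in 1, that without vector 1.

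Among hnRNP genes 7 of 18 passed as lower, and the class had a median change of -0.29. Hnrnpa2b1, whose product packages pre-mRNA and binds exonic and intronic silencers, had 9406, 10571 and 8770 in vector and 5700, 5750 and 5459 in miR-34a samples. It fell 1.69-fold, by 0.76 ± 0.0927 (SE; limma adjusted p = 0.00635), and of the 15 genes it alone passed in all 6 fits that left out an array. Hnrnpm had 3625, 4228 and 3479 against 2362, 2675 and 2243, and fell by 0.63 ± 0.110 (SE; adjusted p = 0.0167). In both, miR-34a arrays lay far below the lowest vector array. Hnrnpul2 had 3460, 3155 and 3304 against 2280, 2190 and 2257, and fell by 0.56 ± 0.0763 (SE; adjusted p = 0.00867). Its call was lost only without miR-34a 3. Hnrnpll, known for its part in CD45 splicing in lymphocytes, had 2681, 2734 and 2867 against 1810, 1946 and 1903, and fell by 0.55 ± 0.0763 (SE; adjusted p = 0.00916). Hnrnpm and Hnrnpll were called in 4 of the 6 fits, all but those without miR-34a 1 or miR-34a 3.

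Hnrnpa1, the relative of Hnrnpa2b1 that competes with SR proteins over splice sites, had 4031, 4710 and 5123 in vector and 3222, 3322 and 3155 in miR-34a samples, and fell by 0.51 ± 0.104 (SE; limma adjusted p = 0.0260). Its probe set is of the kind that can share sequence with other transcripts (identifier ending in _x_at), and with such probe sets left out its change was 0.06. Hnrnpab had 11978, 12679 and 11521 against 9409, 9638 and 9282, and fell by 0.35 ± 0.0767 (SE; adjusted p = 0.0307). Hnrnpd, which also binds AU-rich elements and is called AUF1, had 5368, 5493 and 5096 against 4242, 4186 and 4240, and fell by 0.33 ± 0.0737 (SE; adjusted p = 0.0325). The groups did not overlap in any of the 7 genes. The calls of Hnrnpa1, Hnrnpab and Hnrnpd were kept only without vector 1, in 1 of the 6 fits.

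**Figure D2:**
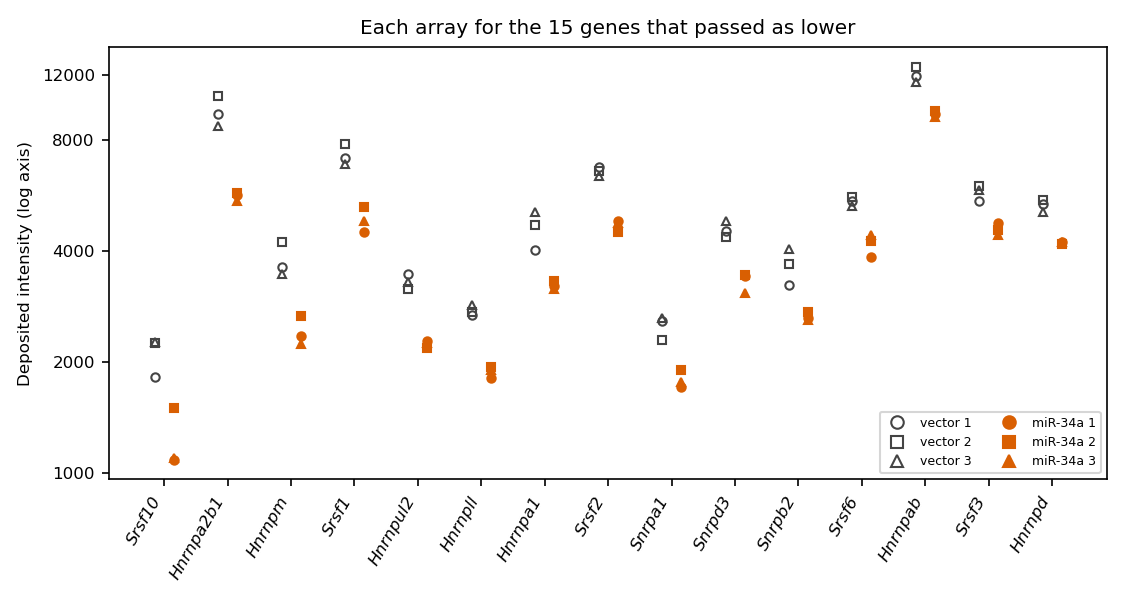
Deposited intensity (log axis) of the 15 genes that passed as lower, with open black symbols for vector arrays and filled orange symbols for miR-34a arrays, circles, squares and triangles for replicates 1, 2 and 3. In each gene the 3 miR-34a symbols lie below the 3 vector symbols; heights of different genes come from different probe sets and are not comparable.

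The largest changes among the 11 hnRNP genes that did not pass were those of the paralogues Hnrnph3 and Hnrnph1, which bind runs of guanines. Hnrnph3 had 813, 1662 and 1563 in vector and 715, 853 and 630 in miR-34a samples, a change of -0.81 (95% interval -1.44 to -0.17, limma adjusted p = 0.102). Hnrnph1 had 3232, 5373 and 5049 against 2773, 3277 and 2800, a change of -0.59 (95% interval -1.05 to -0.13, adjusted p = 0.0968). In both, vector 1 was far below vector 2 and vector 3 and lay within the miR-34a range, and both passed as lower without it, with changes of -1.13 and -0.82. Hnrnph2 had 3133, 3718 and 3228 against 2775, 2891 and 2888, a change of -0.23. Hnrnpu, the nuclear scaffold protein, and Hnrnpc, which binds uridine tracts, changed by -0.26 and -0.24 with groups that did not overlap. Hnrnpk, a poly(C)-binding protein, Hnrnpf and Hnrnpr lay between -0.14 and -0.09.

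Changes above 0 were found in 3 hnRNP genes, and 0 of these passed. Hnrnpdl, the closest relative of Hnrnpd, had 3840, 4511 and 6090 in vector and 5995, 6363 and 5497 in miR-34a samples, a change of 0.33 (95% interval -0.07 to 0.72) in which vector 3 was as high as the miR-34a arrays. Hnrnpul1 had 4600, 4917 and 4521 against 5346, 5323 and 5141, a change of 0.17 with groups that did not overlap. It is the paralogue of Hnrnpul2, which fell. Hnrnpl, known for binding CA repeats, changed by 0.11 (95% interval -0.08 to 0.30).

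Among the snRNP protein genes 3 of 8 passed as lower, and the median change was -0.28. A pair of them, Snrpa1 and Snrpb2, encode U2 snRNP proteins that bind each other. Snrpa1 had 2589, 2291 and 2629 in vector and 1716, 1900 and 1766 in miR-34a samples, and fell by 0.48 ± 0.0899 (SE; limma adjusted p = 0.0205). Snrpb2 had 3231, 3691 and 4060 against 2635, 2742 and 2605, and fell by 0.45 ± 0.101 (SE; adjusted p = 0.0328). The third, Snrpd3, an Sm ring protein, had 4540, 4364 and 4838 against 3435, 3445 and 3087, and fell by 0.46 ± 0.0860 (SE; adjusted p = 0.0197). The miR-34a arrays lay below the vector arrays in all 3. Snrpa1 was called in 3 of the 6 fits that left out an array, Snrpd3 in 2 and Snrpb2 in 1.

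The Sm ring genes Snrpb, Snrpe and Snrpg changed by -0.20, -0.23 and -0.24, each with groups that did not overlap, and did not pass (limma adjusted p from 0.106 to 0.188). Snrpe had 9184, 10083 and 9724 against 7965, 8379 and 8389. Snrpg had 11193, 8955 and 9665 against 7870, 8705 and 8570, with vector 1 highest. Snrpc, the U1-specific protein, had 3656, 3340 and 3565 against 3568, 3594 and 3654, a change of 0.04 (95% interval -0.14 to 0.21) that was -0.06 with arrays centred on their medians. Snrpn, a neuronal relative of Snrpb from an imprinted locus, was read here by a dim probe set, the dimmest of the members. It had 214, 250 and 184 against 158, 178 and 170, a change of -0.32. Brighter probe sets that name Snrpn together with Snurf were at 0.14, 0.11 and -0.12, and a dim one was at -0.92.

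SF3 genes had changes from -0.21 to 0.37 and a median change of -0.004. In limma 0 of 9 passed the threshold, with 1 lower and 1 higher at an unadjusted p under 0.05. Sf3b1, the large HEAT-repeat subunit that clamps the branch point, had 4619, 5279 and 5110 in vector and 4283, 4375 and 4325 in miR-34a samples, a change of -0.21 (95% interval -0.40 to -0.01, adjusted p = 0.154). Sf3b2, which contacts the pre-mRNA near the branch point, had 4426, 5410 and 4196 against 5664, 6112 and 6226, a change of 0.37 (95% interval 0.10 to 0.63, adjusted p = 0.0824). Neither gene's groups overlapped, and Sf3b2 passed as higher without vector 2, as 5.93% of all genes did. Sf3b3 had 2946, 3653 and 2970 against 3282, 3999 and 3599, a change of 0.19, and Sf3b5 a change of -0.18. The remaining 5, Sf3a1, Sf3a2, Sf3a3, Sf3b4 and Sf3b6, lay between -0.07 and 0.10 with groups that overlapped. Whether the SF3 genes differ from the other classes was not tested.

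Several members were read by more than 1 probe set, and these did not always give 1 size. The 44 genes had 115 probe sets, of which 38 (33.0%) passed as lower and 2 as higher when each was tested alone, against 7.18% and 6.47% of all 20380 probe sets. All 6 probe sets of Srsf1 passed as lower, with changes from -2.11 to -0.58. The steepest had 3561, 2853 and 3449 in vector and 674, 722 and 846 in miR-34a samples. All 4 of Hnrnpa2b1 passed, from -1.41 to -0.76, as did all 4 of Srsf10, from -1.39 to -0.74. In these 3 genes every probe set went the same way, and the one used for the gene, its brightest, was the one with the smallest change in Srsf1 and Hnrnpa2b1.

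In other members the probe sets disagreed. Srsf2 had 3 of 4 probe sets lower, to -1.08, and 1 at -0.04. Hnrnpab had 3 of 7 lower, to -0.87, with the others from -0.29 to 0.16. Srsf6 had 1 lower, at -0.39, and 2 at 0.11 and 0.23 that did not pass. The other probe sets of Hnrnpa1 were at 0.06 and -0.27, those of Snrpd3 at -0.10 and 0.05, and those of Srsf3 from -0.70 to -0.18, of which 2 passed. Snrpb2 had 1 more that passed, at -0.66, and 1 at -0.04. Hnrnpll and Hnrnpul2 had 1 other each, at -0.27 and -0.15, which did not pass.

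Conversely, 3 hnRNP genes that did not pass by their brightest probe set had others that did. Hnrnpu had 1 of 5 lower, at -1.07, with 4184, 3597 and 4074 in vector against 1798, 2084 and 1729. Hnrnpf had 2 of 4 lower, at -0.76 and -0.70, while its 2 brightest were at -0.13 and -0.05. Hnrnpr had 1 of 3 lower, at -0.88. The 2 probe sets that passed as higher belonged to Sf3b2, at 0.42, and Sf3a1, at 0.37. All 4 probe sets of Sf3b2 lay above 0, from 0.23 to 0.42, each with miR-34a arrays above vector arrays. The other probe set of Sf3a1 was at -0.005. With the mean over all probe sets of a gene, 14 of the 44 genes passed as lower and 0 as higher, against 5.86% and 6.05% of all genes. Of the 30 members with several probe sets 7 had changes of both signs, and the median spread between probe sets of a member was 0.40. Which part of the transcript each probe set reads was not analysed here.

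**Figure D3:**
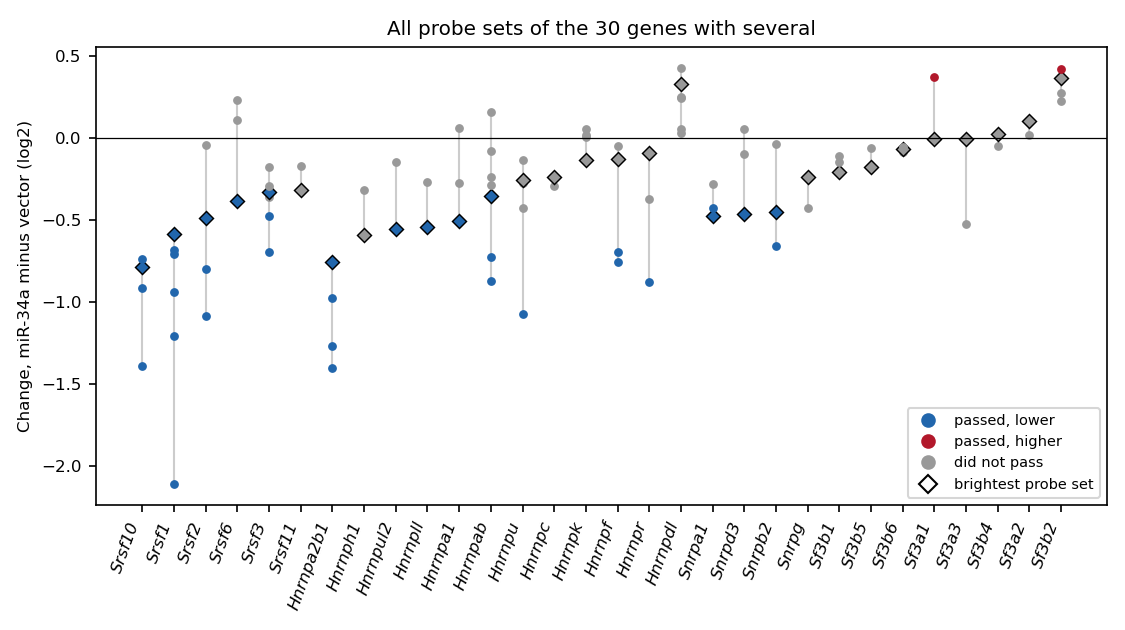
Change (log2, miR-34a minus vector) of every probe set of the 30 genes that have several, with diamonds for the brightest probe set of each gene and colour for the limma call over all probe sets. The probe sets of Srsf1 spread from -2.11 to -0.58 and all passed as lower, whereas those of Srsf6 lie on both sides of 0.

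Other splicing genes gave a mixed picture. Of 150 measured genes that encode further spliceosome proteins, SR-related proteins, their kinases and regulated-splicing factors, 20 (13.3%) passed as lower and 7 (4.67%) as higher, against 5.25% and 6.5% of all genes, and the median change was -0.01. Leaving out miR-34a 1 gave 4 lower and 1 higher genes, with a median of 0.02, where 1.08% and 0.976% of all genes passed. Leaving out miR-34a 3 gave 5 and 0 (1.03% and 0.791% of all genes). Leaving out miR-34a 2 gave 11 and 2 (2.94% and 2.44%), and vector 3 gave 13 and 4 (2.56% and 2.53%). Without vector 2 the counts were 11 and 5 (4.2% and 5.93%), and without vector 1 they were 25 and 8 (7.15% and 10.1%).

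Relatives of the SR proteins and hnRNPs were among the lower genes. Of 22 SR-related genes 3 passed as lower: Tra2b, a splicing activator with arginine- and serine-rich domains, fell by 0.61 ± 0.0941 (SE; limma adjusted p = 0.0121), Pnn by 0.35 and Sfswap by 0.54. The 3 probe sets of Sfswap ran from -0.54 to 1.00, and with their mean it was at 0.20. Of 38 hnRNP-like and regulated-splicing genes 7 (18.4%) passed as lower and 2 (5.26%) as higher, against 5.25% and 6.5% of all genes. Syncrip, also named hnRNP Q, had 2495, 2574 and 2738 in vector and 1544, 1493 and 1484 in miR-34a samples, and fell by 0.78 ± 0.0766 (SE; adjusted p = 0.00455). Tardbp, which encodes TDP-43, had 3819, 4211 and 3990 against 2355, 2698 and 2427, and fell by 0.68 ± 0.0879 (SE; adjusted p = 0.00750). Both passed in all 6 fits that left out an array. The muscleblind gene Mbnl3 fell by 1.47 ± 0.231 (SE; adjusted p = 0.0128), whereas Raly, an hnRNP C relative, rose by 0.61 ± 0.0892 (SE; adjusted p = 0.0107), from 1056, 1067 and 1085 to 1509, 1802 and 1616.

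Among kinases and importers of SR proteins, Srpk2 rose by 0.80 ± 0.128 (SE; limma adjusted p = 0.0135), from 544, 665 and 676 to 1175, 950 and 1197. Its 4 probe sets ran from -0.22 to 0.80. Tnpo3, the import receptor of SR proteins, fell by 0.45 and Top1, the topoisomerase that also phosphorylates SR proteins, by 0.60, with Clk1 at -0.32 not past the threshold. Of 7 LSm genes 1 (14.3%) passed as lower, against 5.25% of all genes. This was Lsm8, the subunit that keeps the LSm ring on U6 snRNA, with 3613, 2860 and 3182 against 1091, 1286 and 1107. It fell by 1.46 ± 0.115 (SE; adjusted p = 0.00264) and passed in all 6 fits that left out an array. Of the other LSm genes, Lsm1, Lsm4 and Lsm7 changed by -0.18, -0.19 and 0.09.

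Core spliceosome genes passed in both directions, at most a few in each list, where 5.25% of all genes passed as lower and 6.5% as higher. Of 19 early spliceosome genes Luc7l3, Ddx46 and Luc7l2 fell by 0.62, 0.56 and 0.49, and Puf60 rose by 0.35. The 5 probe sets of Luc7l2 ran from -0.98 to 0.60. Of 13 U5 and tri-snRNP genes Prpf38b fell by 0.56 and Txnl4a rose by 0.42, with Cd2bp2 at 0.58 and Prpf6 at 0.32 not past the threshold. Of 22 genes of the catalytic spliceosome 1 passed, Cwc22, which fell by 0.52, and Crnkl1, Bud31 and Dhx8 changed by -0.40, 0.30 and 0.21. In the minor spliceosome, which removes a rare class of introns, Rnpc3 fell by 0.80 ± 0.0897 (SE; limma adjusted p = 0.00590) while Scnm1 and Pdcd7 rose by 0.49 and 0.40, and Zmat5 changed by 0.17, among 6 genes. Gemin8, a member of the SMN complex that loads Sm proteins on snRNAs, fell by 0.66, as 1 of 11 assembly genes, with Wdr77, Prmt5 and Gemin7 at -0.23, -0.19 and 0.18. Of the exon junction complex, Casc3 and Rbm8a were measured, at 0.22 and -0.11, and 0 passed in limma, with 1, Casc3, at an unadjusted p under 0.05.

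**Figure D4:**
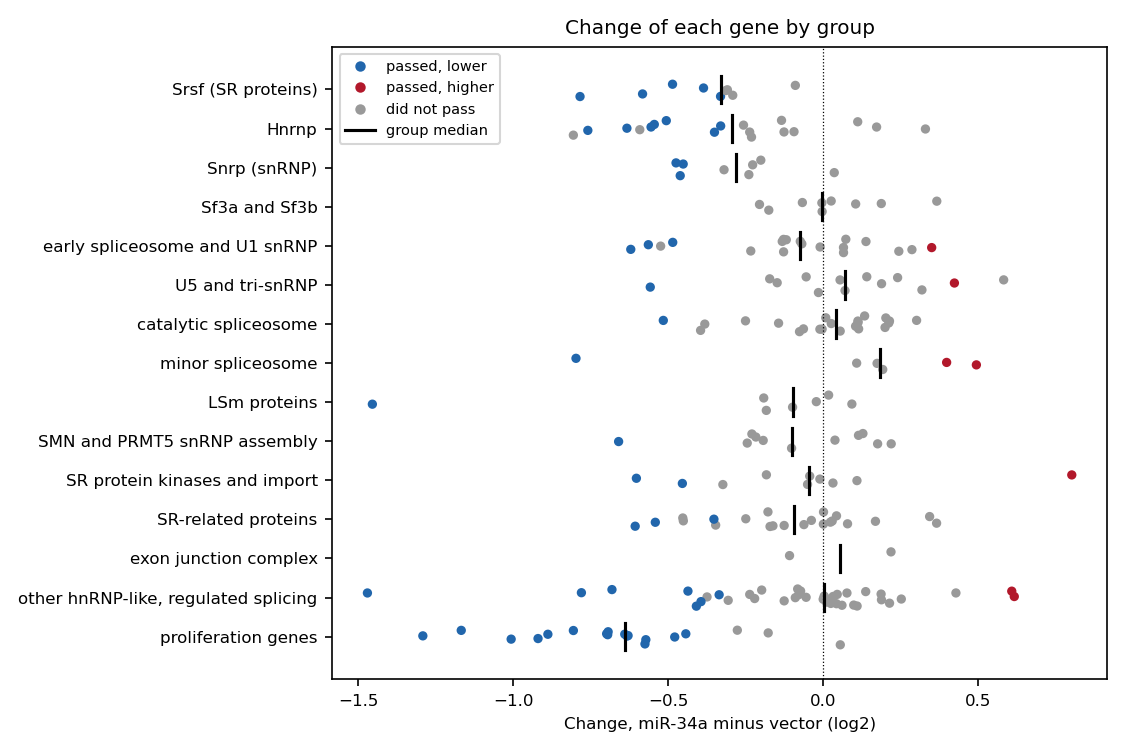
Change (log2, miR-34a minus vector) of each gene in the 4 classes, in 10 lists of other splicing genes and in the proliferation list; points are genes, coloured by the limma call, black bars are medians, and vertical scatter within a row carries no meaning. Medians of the Srsf, Hnrnp and Snrp genes lie at -0.33, -0.29 and -0.28, that of the Sf3 genes at -0.004 and that of the proliferation genes at -0.64.

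Genes of proliferation were also lower in miR-34a samples. The 19 measured proliferation genes include Mki67, the replication helicase genes and mitotic kinase genes. Of these, 16 (84.2%) passed as lower and 0 as higher, against 5.25% and 6.5% of all genes, and their median change was -0.64. Their summed intensity ran from 59830 to 65058 in vector and from 40225 to 42199 in miR-34a arrays, and 0 of them were listed at the lowest value on all arrays. Their part in the lower levels of SR protein, hnRNP and snRNP genes was not tested. In the summed intensity of the fibroblast, macrophage and endothelial lists, vector 1 was the lowest of the 6 arrays, though not in every gene. Counts of the cell type lists below stand beside the same 5.25% and 6.5% of all genes. In lists this short, 1 gene that passed says little about the list. Fibroblast genes had summed intensities from 11173 to 40551 in vector and from 32735 to 46533 in miR-34a arrays, with 1 of 8 higher, and macrophage genes 11236 to 19924 and 20511 to 24189, with 2 of 9 higher and 1 lower. Mast cell genes had 993 to 1357 against 3345 to 5382, with 4 of 7 higher, and T and NK cell genes 4644 to 5012 against 3859 to 4125, with 1 of 8 lower. That lower sum does not describe most of the T and NK cell list, in which 5 of 8 changes were above 0 and the median was 0.09. Endothelial genes had 3462 to 6952 against 5008 to 5494 with 0 of 7 past the threshold, and neuronal genes 668 to 946 against 750 to 940 with 1 of 6, the dim Snap25, lower. Their part in the results was not tested either. As a measure of RNA integrity, the log2 signal of the 3' control probe set minus that of the 5' one was compared between groups. For Actb it averaged 0.43 ± 0.15 in vector and 0.57 ± 0.026 in miR-34a samples (SD, n = 3 each; two-sided exact permutation p = 0.4). For Gapdh it averaged -0.0068 ± 0.066 and 0.11 ± 0.014 (SD, n = 3 each; exact permutation p = 0.1, which no 3 against 3 design can go below). The Gapdh groups did not overlap, from -0.054 to 0.069 in vector and from 0.098 to 0.125 in miR-34a arrays. For both controls the average was higher in miR-34a samples. Its part in probe sets of a gene that disagree was not tested.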

How the data were processed

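Messenger RNA was measured on 6 Affymetrix arrays, 3 per group, and groups and replicate numbers were taken from the sample titles. The values used were linear intensities, 1 per probe set, as the authors deposited them. No source used here gives the summarisation or normalization, and no detection calls were used, so dim probe sets are not told apart from background. Gene symbols came from the platform's annotation table and were brought up to date with RefSeq's GRCm38.p6 gene table, matched on Entrez identifier: 20393 of 22690 had 1 symbol, 691 several and 1606 none. After leaving out control probe sets, 20380 were used, and each of 12393 genes was represented by its probe set with the highest mean log2 value.

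limma 3.58.1 (R 4.3.3; functions lmFit and then eBayes, two-sided, neither trend nor block) was applied to log2(intensity + 16), a scale that understates changes of dim genes. The number of arrays limits precision. The fit was first tested on simulated data with 200 genes changed by a known amount. It recovered 0% of them at a change of 0.5 on the log2 scale, 80% at 1 and 95.5% at 2. The simulation shuffled the spreads among genes and changed 200 of 12393, whereas 651 genes passed as lower and 805 as higher in the data. More changed genes loosen the Benjamini-Hochberg cutoff, so these shares do not carry over to the data, where Hnrnpd passed at -0.33. Changes of the 44 genes ran from -0.81 to 0.37, and a gene that did not pass is not shown to be unchanged. Genes of the 4 classes and the lists were chosen with earlier results of these data known. Every member could be named; array values are given for members that passed and for the largest changes of each class that did not, and for up to 4 genes per list of smallest unadjusted p. Values of further members, and list genes beyond 4, were added after they were seen. Promoter and microRNA sequences come from RefSeq, GRCm38.p6. Same-numbered arrays did not deviate together (r from -0.168 to -0.081 across genes), so the replicate number was not taken to pair samples. Alternatives were other normalizations, pseudocounts of 1 and 64, the dimmest genes left out, other choices of probe sets, array weights, a robust trend of the variance, the replicate number as a block, an adjusted p under 0.1 and leaving out each array. Figures used matplotlib 3.10.9.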

Additional observations from a re-analysis of the deposited data

How the results depend on the processing

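The count of lower members, 15, was 24 with array weights (where 10.6% of all genes were lower) and 6 with the replicate block, and 1 to 18 when each array was left out. Under the other settings run it stayed within 14 to 19. Higher members, 0, numbered 1 with array weights, without _x_at probe sets or at an adjusted p under 0.1, each time Sf3b2, and 0 to 1 without each array. The median over members, -0.249, was -0.344 with median centring, which moved the median of all genes from 0.024 to -0.071, and -0.284 to -0.232 without each array. For the other splicing genes, 20 lower and 7 higher became 32 and 16 with array weights, where 10.6% and 15.5% of all genes passed. With the replicate block they became 8 and 2 (2.19% and 2.02% of all genes). Higher genes numbered 4 with median centring (3.64%) and 12 at an adjusted p under 0.1 (11.5%). Without each array the counts ran from 4 to 25 lower and 0 to 8 higher. Their median, -0.0109, was -0.0614 with quantile normalization, -0.106 with median centring, -0.0584 when probe sets of a gene were averaged and -0.0583 to 0.0168 without each array. The replicate block is a fit on numbers that did not pair the samples.

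Changes reversed sign for Hnrnpa1 without _x_at probe sets (0.0635), for Sfswap when its probe sets were averaged (0.200), and for genes near 0. Averaged probe sets gave Sf3a1 0.184 and Sf3b4 -0.0113, array weights gave Sf3a1 0.0679, and median centring gave Snrpc -0.0601, Sf3b4 -0.0701 and Lsm7 -0.00329. Without each array, Hnrnpr ran from -0.249 to 0.0196, Snrpc from -0.00206 to 0.0627, Sf3b6 from -0.148 to 0.0131, Sf3a1 from -0.0753 to 0.0887, Sf3a3 from -0.0978 to 0.0519, Sf3b4 from -0.0102 to 0.0506 and Sf3a2 from -0.00175 to 0.166. Over the 44 members and the settings run, 636 fits kept direction and call, 63 lost a call, 32 gained one and 16 reversed. The causes were not tested, though a fit without 1 array has fewer samples. Dim genes have no detection calls here, so their changes are less certain than those of the mostly bright members.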

Other observations

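Genes of the same families that could be read only on probe sets shared with other genes are not among the 44, and their probe sets name several genes, so the values below are of the shared signal. All 4 probe sets annotated to Hnrnpa3 together with Gm6793 passed as lower in a limma fit of 22626 probe sets, with changes from -0.83 to -0.54. The brightest of them had 10019, 10320 and 10648 in vector and 6270, 6792 and 6170 in miR-34a samples. Of 3 probe sets that name Hnrnpa1 beside relatives, 2 passed as lower, at -0.67 and -0.57, and the third was at -0.36. Of 14 such shared probe sets 7 passed as lower and 0 as higher, where 6.94% and 6.05% of all probe sets did, and 0 had an unadjusted p under 0.05 in the higher direction. The probe sets that name Snrpd1, Snrpa and Snrpd2 beside other genes were at -0.30, -0.11 and 0.01 and did not pass. The 4 that name Snurf and Snrpn together ran from -0.92 to 0.14, and 1, the dim one at -0.92, passed as lower. The 2 brightest of them were at 0.14 and 0.11, the opposite sign to the dim probe set that represents Snrpn, at -0.32.

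Among 11 genes that carry an older Sfrs, Hnrp or related name under a different current symbol, Tra2b and Sfswap passed as lower and 0 passed as higher in limma, with 0 higher at an unadjusted p under 0.05. With these genes counted, 17 of 55 genes were lower, where 5.25% of all genes were.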
